A study of Mus musculus with 8 samples.

Results

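The genes described here are 39 interferon-induced genes measured in mouse liver, taken by symbol from a list of 49. They were separated into 7 GTPases typical of the response to interferon gamma, 21 genes typical of the response to type I interferon, and 11 genes induced by gamma or by both. The other 10 listed genes (Irgm2, Gbp6, Tgtp1, Ifit3, Isg15, Oas1a, Ifi44, Mx1, Mx2 and Ddx58) were not analysed here. The values came from 8 arrays of total liver RNA from male C57BL/6 mice aged 3 to 3.5 months. There were 4 wild-type and 4 Amacr-/- animals, and the labels call the 4 samples of each genotype biological replicates. The deleted gene codes for the racemase of alpha-methylacyl-CoA esters, which is needed to shorten the side chain of bile acid precursors and to break down branched-chain fatty acids. The design text sets the comparison between genotypes in the context of bile acid synthesis. How the allele was made was not given in the sources used here.

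Interferons are secreted proteins that bind receptors at the cell surface and act through Janus kinases on STAT transcription factors. Type I interferons, made by most cells after viral nucleic acid is sensed, drive a complex that holds STAT2 and IRF9, binds interferon-stimulated response elements and switches on antiviral effectors. Interferon gamma, made mainly by T and NK cells, acts through gamma-activated sites. Its targets include the immunity-related and guanylate-binding GTPases, the immunoproteasome, peptide loading onto MHC molecules and the chemokines that recruit T cells. In liver, hepatocytes as well as Kupffer cells, the resident macrophages, respond to both kinds of interferon.

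The elements named above can be read in the promoters of several of these genes. The windows of RefSeq (GRCm38.p6), which run from 250 bases before a gene's start to 50 after it, held 31 of the 39 genes. They were searched on both strands for GAAANNGAAA, the core of the interferon-stimulated response element, and for TTCNNNGAA, the gamma-activated site, which reads the same on either strand. The first was found in 15 of the 31 genes (48.4%), against 3.99% of 27025 genes with a window. The second was found in 8 (25.8%), against 9.55%. Of the gamma-type GTPases, 5 of 6 with a window held the first motif and 2 held the second. Of the type I genes these counts were 8 and 3 of 15, and of the other 11 genes 2 and 3 of 10 with a window. A gene with more than 1 window (the 31 genes have 37) was counted if either held a match. These matches describe the letters in short windows. The 130 bases before the start are shown for 8 genes, chosen after their values and matches were seen. They are 4 GTPases with the response element, of which Igtp and Gbp7 also hold the gamma-activated site, Psmb8 and Irf1 with the gamma-activated site alone, and Ifit1 and Rsad2, type I effectors that differed from each other on the Amacr-/- arrays. Capitals mark the motif matches.
Igtp, chr11:58199426-58199555, plus strand: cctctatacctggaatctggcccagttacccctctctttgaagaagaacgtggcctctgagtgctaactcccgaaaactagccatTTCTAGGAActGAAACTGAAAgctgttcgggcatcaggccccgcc
Irgm1, chr11:48871421-48871550, minus strand: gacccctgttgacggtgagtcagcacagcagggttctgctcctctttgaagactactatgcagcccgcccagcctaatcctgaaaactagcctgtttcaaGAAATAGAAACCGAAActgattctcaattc
Gbp3, chr3:142559914-142560043, plus strand: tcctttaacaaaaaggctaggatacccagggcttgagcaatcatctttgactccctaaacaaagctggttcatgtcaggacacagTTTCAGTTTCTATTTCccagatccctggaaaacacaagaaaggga
Gbp7, chr3:142530206-142530335, plus strand: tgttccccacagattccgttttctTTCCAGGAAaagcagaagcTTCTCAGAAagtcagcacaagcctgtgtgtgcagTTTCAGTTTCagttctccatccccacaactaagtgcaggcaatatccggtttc
Psmb8, chr17:34198065-34198194, plus strand: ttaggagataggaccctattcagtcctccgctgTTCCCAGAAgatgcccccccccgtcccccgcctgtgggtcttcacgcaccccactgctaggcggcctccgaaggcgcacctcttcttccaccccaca
Irf1, chr11:53769884-53770013, plus strand: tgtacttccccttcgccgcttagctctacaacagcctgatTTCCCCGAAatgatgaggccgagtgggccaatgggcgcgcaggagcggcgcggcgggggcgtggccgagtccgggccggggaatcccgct
Ifit1, chr19:34640759-34640888, plus strand: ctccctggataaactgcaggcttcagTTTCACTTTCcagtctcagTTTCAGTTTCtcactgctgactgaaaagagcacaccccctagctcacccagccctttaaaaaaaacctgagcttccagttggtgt
Rsad2, chr12:26456453-26456582, minus strand: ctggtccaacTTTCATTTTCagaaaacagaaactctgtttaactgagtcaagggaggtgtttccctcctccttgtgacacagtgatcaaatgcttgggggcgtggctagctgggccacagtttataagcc
Igtp held 1 match of each motif, and their first bases lay 11 bases apart. The second windows of Gbp3 and Irf1 held no match. Irgm1 and Gbp3 each held a pair of overlapping GAAANNGAAA matches, and Ifit1 a pair that did not overlap. Psmb9 and Tap1, which encode an immunoproteasome subunit and a peptide transporter, lie on opposite strands of chromosome 17 with 225 bases between their starts. Their windows share 275 of 300 bases, and neither motif was found in them.

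Amacr itself averaged 11.96 on the wild-type arrays (SD 0.18, n = 4) and 5.40 on the Amacr-/- arrays (SD 0.13, n = 4) on the log2 scale, as the labels of the 8 arrays have it. The tissue label was checked with 11 hepatocyte markers, none of which read below 10.51 on any array, where the arrays' medians lay between 6.63 and 6.67. Over 16492 probe sets, 19 passed a limma test at a Benjamini-Hochberg adjusted p of 0.05, 7 of them lower and 12 higher in Amacr-/- (0.115% of those tested, 0.0424% and 0.0728%). For the interferon-induced genes 3 arrays stood apart. Wild-type replicate 4 was the highest of the 8 arrays in 30 of the 39 genes (76.9%), against 9.03% of all probe sets. Amacr-/- replicates 3 and 4 both lay below every wild-type array in 32 of the 39 (82.1%), against 13.2% of all probe sets. The differences of the 39 genes are plotted with and without wild-type replicate 4, and both values are given for each.

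None of the 39 genes passed the test in either direction. Their adjusted p in limma lay between 0.241 and 0.953, and 10 of them were lower and 0 higher at an unadjusted p below 0.05 (25.6% lower, against 5.63% of all probe sets lower and 5.66% higher). The count of 10 became 2 without Amacr-/- replicate 3, 2 without Amacr-/- replicate 4 and 6 without wild-type replicate 4. Set against a background of 0.115% called, a count of 0 does not separate these genes from the rest of the array. Their direction was uneven: 32 of 39 had a lower mean in Amacr-/- (82.1%, against 43.9% of all probe sets), and 28 of 39 did without wild-type replicate 4. The median difference, Amacr-/- minus wild type, was -0.42 on the log2 scale with all 8 arrays and -0.23 without that replicate, beside 0.02 for all probe sets in both cases. In 6 genes (Igtp, Gbp3, Stat2, Psmb8, Psmb10 and Tap1) every Amacr-/- array lay below every wild-type array (15.4%, against 3.25% of all probe sets), and no gene showed the opposite, which 3.42% of all probe sets did. Leaving out an array cannot undo a separation, so the 6 remained separated without wild-type replicate 4 by construction. No further gene joined them, and the share over all probe sets was then 5.92%. The genes are read from the same 8 RNA samples, so counts over them are not counts of independent observations.

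**Figure D1:**
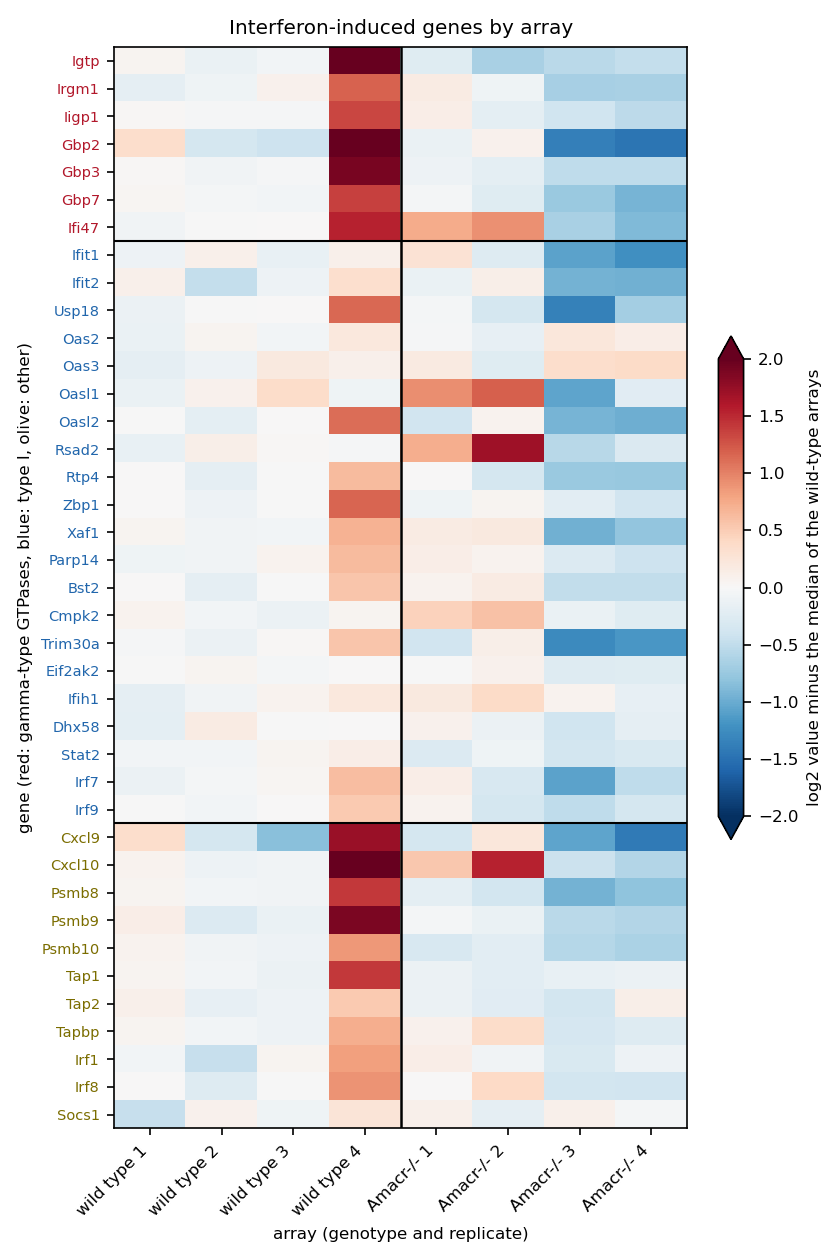
Log2 value of each of the 39 genes on each of the 8 arrays, minus the median of that gene's 4 wild-type values, on a colour scale from -2 to 2. The wild-type replicate 4 column is red for all 7 gamma-type GTPases, and the columns of Amacr-/- replicates 3 and 4 are blue for most genes of all 3 classes.

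The map of deviations by array shows 3 unlike sets of columns. Wild-type replicates 1 to 3 were close to each other, wild-type replicate 4 was high, and the Amacr-/- arrays were split, with replicates 1 and 2 close to wild type for most genes and replicates 3 and 4 low. Amacr-/- replicate 1 lay below every wild-type array in 8 genes (20.5%, against 20.0%) and replicate 2 in 16 (41.0%, against 32.0%).

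The gamma-type GTPases act within cells against vacuolar pathogens. Irgm1 and Igtp (also called Irgm3) regulate the family, while Iigp1, Ifi47 and guanylate-binding proteins such as Gbp2, Gbp3 and Gbp7 are directed to the vacuole membrane. All 7 had a lower mean in Amacr-/-, as 43.9% of all probe sets did, and none passed the test. In 2 of 7 the groups did not overlap, with Amacr-/- lower, against 3.25% of all probe sets. Igtp read 9.71, 9.52, 9.60 and 12.16 in the wild-type replicates, in order of number, and 9.42, 9.01, 9.11 and 9.18 in those of Amacr-/-. The Amacr-/- values were all below the wild-type values, and wild-type replicate 4 was 2.56 above the median of the other three, a 5.9-fold higher signal. The difference was -1.07 (SE 0.53, adjusted p = 0.483 in limma) with all arrays and -0.43 (adjusted p = 0.214) without that replicate.

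Gbp2 read 7.14, 6.44, 6.38 and 8.81 in wild type and 6.66, 6.88, 5.43 and 5.33 in Amacr-/-. Its groups overlapped, because Amacr-/- replicates 1 and 2 lay within the wild-type range while replicates 3 and 4 lay below it. The difference was -1.12 (SE 0.57, adjusted p = 0.497 in limma), the largest in size of the 39 genes, and -0.58 without wild-type replicate 4. Gbp3 read 7.64, 7.55, 7.60 and 9.52 in wild type and 7.52, 7.43, 7.11 and 7.11 in Amacr-/-. All 4 Amacr-/- values were lower than all wild-type values, although the nearest of them differed from the lowest wild-type array by only -0.03. The mean difference was -0.78 (SE 0.40, adjusted p = 0.504), or -0.30 without wild-type replicate 4.

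Ifi47, which encodes a further immunity-related GTPase, had the smallest difference of the class. It read 9.45, 9.52, 9.53 and 11.06 in wild type and 10.27, 10.44, 8.88 and 8.64 in Amacr-/-. Amacr-/- replicates 1 and 2 exceeded 3 of the 4 wild-type arrays, and replicates 3 and 4 lay below all of them. The difference of -0.33 (SE 0.50, adjusted p = 0.836 in limma) turned to 0.06 without wild-type replicate 4. Irgm1, Iigp1 and Gbp7 had differences of -0.56, -0.57 and -0.82, with wild-type replicate 4 above the median of the other three by 1.26, 1.36 and 1.41. Without that replicate their differences were -0.25, -0.24 and -0.47. Gbp7 alone of the GTPases had an unadjusted p below 0.05 (0.0363, adjusted p = 0.402). The class median was -0.78 with all arrays and -0.30 without wild-type replicate 4.

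The type I class held 16 antiviral effectors. Their median difference was -0.35, and -0.13 without wild-type replicate 4. A lower mean in Amacr-/- was found in 11 of 16 (68.8%, against 43.9% of all probe sets). None passed the test and none had groups that did not overlap, which 3.25% of all probe sets had with Amacr-/- lower. Usp18, which removes ISG15 from proteins and dampens type I receptor signalling, read 8.16, 8.28, 8.29 and 9.44 in wild type and 8.24, 7.93, 6.93 and 7.61 in Amacr-/-. Amacr-/- replicate 1 lay among the wild-type values and the other three below them. The difference was -0.86 (SE 0.34, adjusted p = 0.383 in limma), or -0.57 without wild-type replicate 4.

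Oasl2, a member of the oligoadenylate synthetase-like family, read 6.55, 6.37, 6.58 and 7.68 in wild type and 6.18, 6.64, 5.63 and 5.59 in Amacr-/-. Only Amacr-/- replicate 2 lay within the wild-type range. The difference was -0.78 (SE 0.32, adjusted p = 0.404 in limma) and -0.49 without wild-type replicate 4. Oas2, which makes the oligoadenylates that activate RNase L, read 7.85, 8.03, 7.93 and 8.19 in wild type and 7.96, 7.81, 8.20 and 8.11 in Amacr-/-. Its groups overlapped almost wholly, and the difference was 0.02 (SE 0.11, 95% interval -0.22 to 0.26), or 0.08 without wild-type replicate 4. Amacr-/- replicates 3 and 4, low for most effectors, were the highest Amacr-/- arrays for Oas2 and for Oas3.

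In some effectors the spread lay among the Amacr-/- arrays rather than in wild-type replicate 4. Ifit1, Rsad2 and Oasl1 are named as examples after their values were seen. Ifit1, which binds viral RNA lacking the host cap methylation, read 7.16, 7.37, 7.11 and 7.37 in wild type and 7.55, 7.0, 6.19 and 6.04 in Amacr-/-. The wild-type arrays spanned 0.26, whereas Amacr-/- replicates 3 and 4 differed from the lowest of them by -0.92 and -1.07. The difference was -0.56 (SE 0.30, adjusted p = 0.518 in limma) and changed little, to -0.52, without wild-type replicate 4.

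Rsad2 encodes viperin, an enzyme that makes a chain-terminating nucleotide. It read 6.45, 6.72, 6.62 and 6.58 in wild type and 7.33, 8.30, 6.04 and 6.31 in Amacr-/-. Amacr-/- replicates 1 and 2 were above every wild-type array and replicates 3 and 4 below every one, with a difference of 0.40 (SE 0.43, adjusted p = 0.756), and also 0.40 without wild-type replicate 4. Oasl1, which restrains translation of Irf7 in mouse cells, was split in the same way at 8.44, 8.71, 6.45 and 7.29 in Amacr-/-, against 7.37, 7.60, 7.88 and 7.42 in wild type. Its difference was 0.16, or 0.11 without wild-type replicate 4. Cmpk2, a mitochondrial nucleotide kinase, had the same split, with a difference of 0.18, or 0.20 without that replicate. The remaining effectors had differences of -0.78 (Trim30a), -0.57 (Rtp4), -0.50 (Xaf1), -0.44 (Ifit2), -0.42 (Zbp1), -0.28 (Bst2), -0.26 (Parp14), -0.11 (Eif2ak2) and 0.16 (Oas3). Without wild-type replicate 4 these were -0.64 (Trim30a), -0.40 (Rtp4), -0.32 (Xaf1), -0.32 (Ifit2), -0.12 (Zbp1), -0.13 (Bst2), -0.10 (Parp14), -0.11 (Eif2ak2) and 0.19 (Oas3). Of these, Zbp1 senses Z-form nucleic acid, Bst2 (tetherin) holds budding virus at the cell surface and Eif2ak2 (PKR) halts translation on double-stranded RNA. Trim30a and Rtp4 had unadjusted p-values below 0.05, 0.0280 and 0.0244, with adjusted p = 0.374 and 0.356 in limma. In 14 of the 16 effectors, all but Oas2 and Oas3, Amacr-/- replicates 3 and 4 were below every wild-type array (87.5%, against 13.2% of all probe sets).

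Of the cytoplasmic sensors of viral RNA, Ifih1 (MDA5) read 9.11, 9.21, 9.36 and 9.50 in wild type and 9.48, 9.67, 9.35 and 9.12 in Amacr-/-. Dhx58 (LGP2), which modulates the other sensors, read 5.96, 6.32, 6.14 and 6.17 in wild type and 6.24, 6.03, 5.76 and 5.98 in Amacr-/-. Both pairs of groups overlapped. The differences were 0.11 (SE 0.13, adjusted p = 0.782 in limma) for Ifih1 and -0.14 (SE 0.11, adjusted p = 0.659) for Dhx58, and 0.18 and -0.14 without wild-type replicate 4. Neither showed the low values of both Amacr-/- replicates 3 and 4 seen in most effectors.

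The transcription factors of the type I response had lower means in Amacr-/- in 3 of 3 cases, against 43.9% of all probe sets. Stat2, which acts in a complex with IRF9, read 7.65, 7.64, 7.75 and 7.83 in wild type and 7.42, 7.61, 7.34 and 7.39 in Amacr-/-. The groups did not overlap, and wild-type replicate 4 was only 0.18 above the median of the other three. Its difference of -0.28 (SE 0.08, 95% interval -0.46 to -0.10) had the lowest adjusted p of the 39 genes, 0.241 in limma, and was -0.24 (adjusted p = 0.357) without wild-type replicate 4. Stat2 thus had a small difference beside a small spread.

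Irf7, which amplifies type I interferon production, read 8.50, 8.58, 8.65 and 9.23 in wild type and 8.75, 8.30, 7.54 and 8.10 in Amacr-/-. Irf9, which binds the response element in the complex with STAT2, read 8.0, 7.96, 8.03 and 8.54 in wild type and 8.09, 7.67, 7.51 and 7.67 in Amacr-/-. In both genes only Amacr-/- replicate 1 lay within the wild-type range. The differences were -0.57 (SE 0.25, adjusted p = 0.439 in limma) for Irf7 and -0.40 (SE 0.16, adjusted p = 0.393) for Irf9, and -0.40 and -0.26 without wild-type replicate 4. Over all 21 type I genes the median difference was -0.28, and -0.14 without that replicate. They had 15 lower means (71.4%, against 43.9% of all probe sets).

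The immunoproteasome subunits Psmb8, Psmb9 and Psmb10 replace the catalytic subunits of the standard proteasome, and Tap1, Tap2 and Tapbp carry and load its peptides onto MHC class I. All 6 had a lower mean in Amacr-/-, as 43.9% of all probe sets did, and none passed the test. In 3 the groups did not overlap, with Amacr-/- lower, against 3.25% of all probe sets. Psmb8 read 9.27, 9.17, 9.15 and 10.64 in wild type and 9.02, 8.86, 8.28 and 8.41 in Amacr-/-. Every Amacr-/- array was lower than every wild-type array, and the difference was -0.92 (SE 0.33, adjusted p = 0.349 in limma), or -0.55 (adjusted p = 0.314) without wild-type replicate 4. Psmb10 read 10.02, 9.89, 9.85 and 10.82 in wild type and 9.63, 9.74, 9.38 and 9.32 in Amacr-/-. It too was separated, with a difference of -0.63 (SE 0.21, adjusted p = 0.315) that became -0.40 (adjusted p = 0.272).

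Psmb9 read 8.91, 8.50, 8.65 and 10.66 in wild type and 8.74, 8.65, 8.24 and 8.20 in Amacr-/-. Amacr-/- replicates 1 and 2 lay among wild-type replicates 1 to 3, so most of its difference of -0.72 (SE 0.43, adjusted p = 0.562 in limma) came with wild-type replicate 4, and -0.23 was left without it. Tap1, its neighbour on the opposite strand, read 7.37, 7.25, 7.20 and 8.72 in wild type and 7.19, 7.10, 7.16 and 7.19 in Amacr-/-. The nearest Amacr-/- arrays differed from the lowest wild-type array by -0.01, the last decimal of the deposited values. The mean difference of -0.48 (SE 0.30, adjusted p = 0.586) became -0.11. Tapbp, the tapasin gene, read 9.89, 9.77, 9.73 and 10.56 in wild type and 9.92, 10.19, 9.49 and 9.57 in Amacr-/-, with overlapping groups. Its difference of -0.20 (SE 0.21, adjusted p = 0.765) was 0.00 without wild-type replicate 4, and that of Tap2 was -0.24, or -0.09 without it.

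The chemokines Cxcl9 and Cxcl10 attract T cells through CXCR3. Cxcl9 read 8.74, 8.04, 7.56 and 10.12 in wild type and 8.04, 8.62, 7.34 and 6.98 in Amacr-/-. Cxcl10 read 7.17, 7.0, 7.04 and 9.17 in wild type and 7.64, 8.65, 6.67 and 6.52 in Amacr-/-. Both were highest in wild-type replicate 4 and below all wild-type arrays in Amacr-/- replicates 3 and 4, and Cxcl10 was above wild-type replicates 1 to 3 in Amacr-/- replicates 1 and 2. The difference of Cxcl9 was -0.87 (SE 0.54, adjusted p = 0.581 in limma), or -0.37 without wild-type replicate 4. That of Cxcl10 was -0.22 (SE 0.59, adjusted p = 0.911) and turned to 0.30.

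Among the regulators, Irf1 is induced early by interferon and drives many of the genes above, Irf8 is the related factor of myeloid cells, and Socs1 inhibits Janus kinases. Irf1 read 9.12, 8.72, 9.23 and 9.99 in wild type and 9.31, 9.10, 8.87 and 9.07 in Amacr-/-. All 4 Amacr-/- values lay within the wild-type range, with a difference of -0.18 (SE 0.23, adjusted p = 0.812 in limma) that turned to 0.06 without wild-type replicate 4. Irf8 read 7.11, 6.84, 7.10 and 8.01 in wild type and 7.11, 7.51, 6.73 and 6.72 in Amacr-/-, with a difference of -0.25 (SE 0.26, adjusted p = 0.758) that became 0.00. Socs1 differed by 0.04 (adjusted p = 0.926), or 0.15 without that replicate. The 11 genes induced by gamma or by both had a median difference of -0.25, and -0.09 without wild-type replicate 4.

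**Figure D2:**
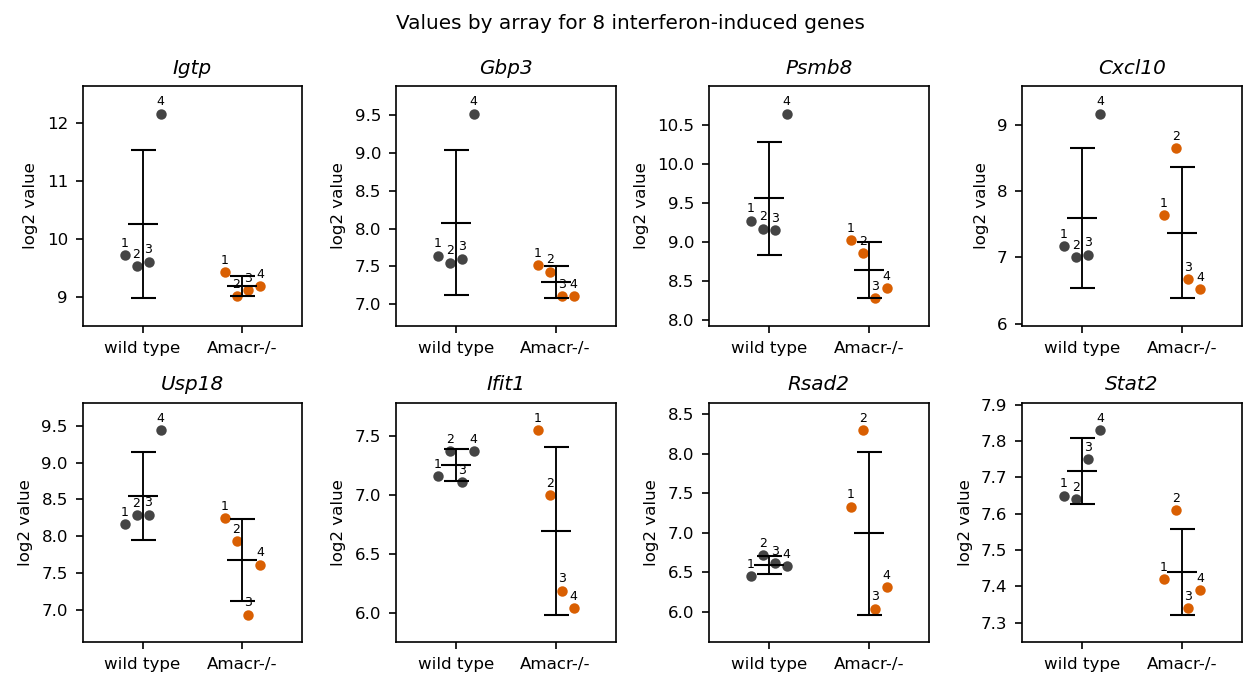
Log2 values of 8 genes by genotype, with each array drawn as a point numbered by its replicate and a bar for the mean ± SD (n = 4). In Igtp, Gbp3, Psmb8, Cxcl10 and Usp18 wild-type replicate 4 lies far above replicates 1 to 3, while in Ifit1 and Rsad2 the spread is among the Amacr-/- arrays.

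The plot of 8 genes by array sets these forms side by side. For Igtp the wild-type SD was 1.28 and the Amacr-/- SD 0.17. For Rsad2 they were 0.11 and 1.03. For Stat2 both were small, 0.09 and 0.12.

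**Figure D3:**
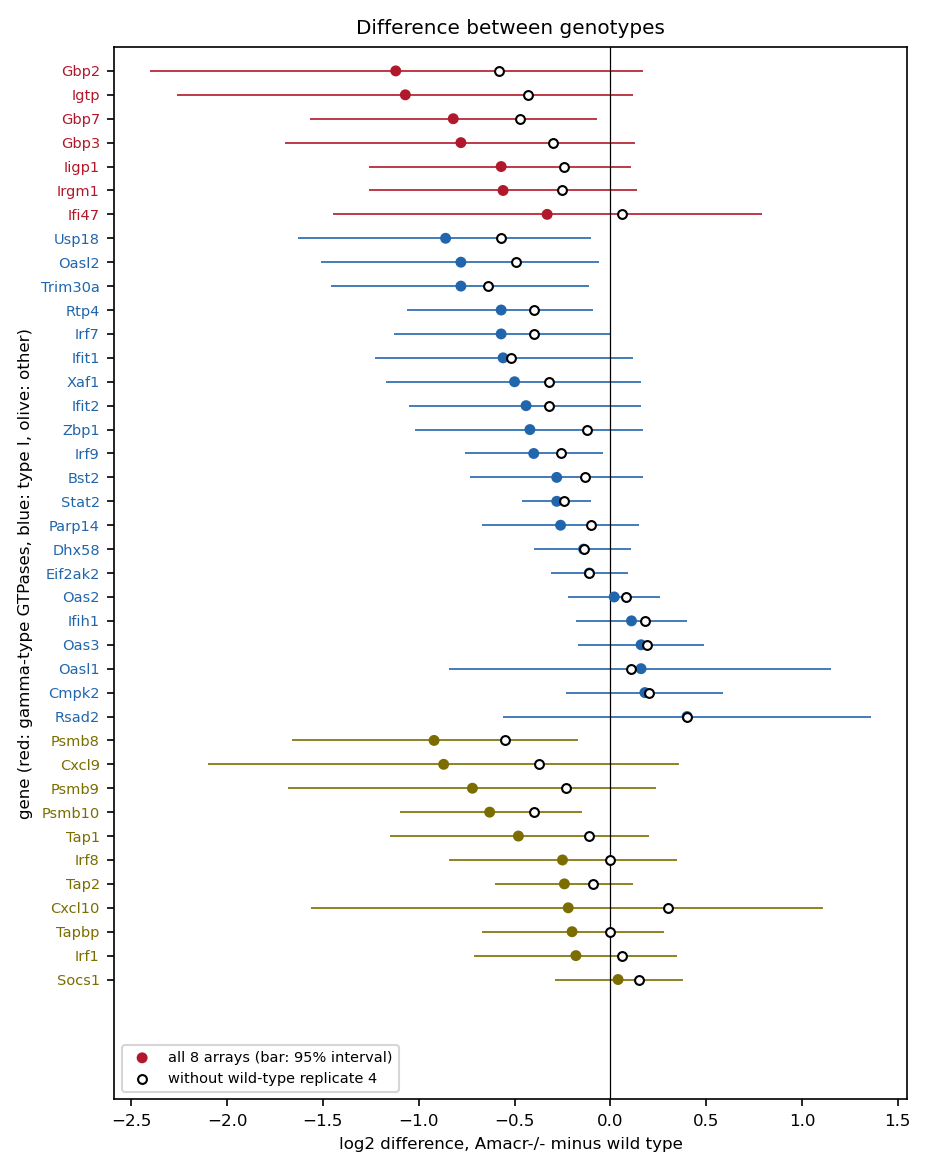
Difference in log2 value, Amacr-/- minus wild type, for the 39 genes, with all 8 arrays (filled, with the 95% interval of the limma fit) and without wild-type replicate 4 (open). Open points lie closer to 0 than filled ones for the 7 gamma-type GTPases, and for Ifi47, Irf1 and Cxcl10 they cross it. That of Irf8 also crosses, by less than the rounding (0.00).

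The plot of differences shows the weight of 1 array in the mean of 4. The GTPase median moved from -0.78 to -0.30 when it was left out, the type I median from -0.28 to -0.14, and the median of the other 11 genes from -0.25 to -0.09. No gene passed the test without it, where 0.0667% of all probe sets did, and the lowest adjusted p was then 0.214, for Igtp. Igtp's SE was 0.53 with all arrays and 0.11 without wild-type replicate 4.

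The spread between wild-type arrays was wider for these genes than for most of the array. The median SD over 4 wild-type arrays was 0.36 for the 39 genes, against 0.11 for all probe sets. It was 0.78 for the gamma-type GTPases, 0.53 for the genes induced by gamma or both and 0.27 for the type I genes. Igtp, with an SD of 1.28, lay at the 99.9th percentile of all probe sets, and Gbp2 (1.13), Cxcl9 (1.11), Cxcl10 (1.05) and Psmb9 (1.00) at the 99.8th. Over wild-type replicates 1 to 3 alone the median SD was 0.09 for the 39 genes and 0.09 for all probe sets, and 0.05 for the GTPases, 0.09 for the type I genes and 0.14 for the others.

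Wild-type replicate 4 was the highest of all 8 arrays in 7 of 7 gamma-type GTPases, 12 of 21 type I genes and 11 of 11 of the remaining genes. It was above the median of the other wild-type arrays by 1.26 (Irgm1) to 2.56 (Igtp) among the GTPases. Among the type I genes this figure ran from -0.18 (Oasl1) to 1.18 (Zbp1), and among the others from 0.35 (Socs1) to 2.13 (Cxcl10). The Amacr-/- spread was ordered otherwise, with median SDs of 0.41 for the GTPases, 0.37 for the type I genes and 0.28 for the others. The wild-type SD exceeded the Amacr-/- SD in 6 of 7 GTPases and 11 of 11 of the others but in 5 of 21 type I genes, against 33.3% of all probe sets.

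**Figure D4:**
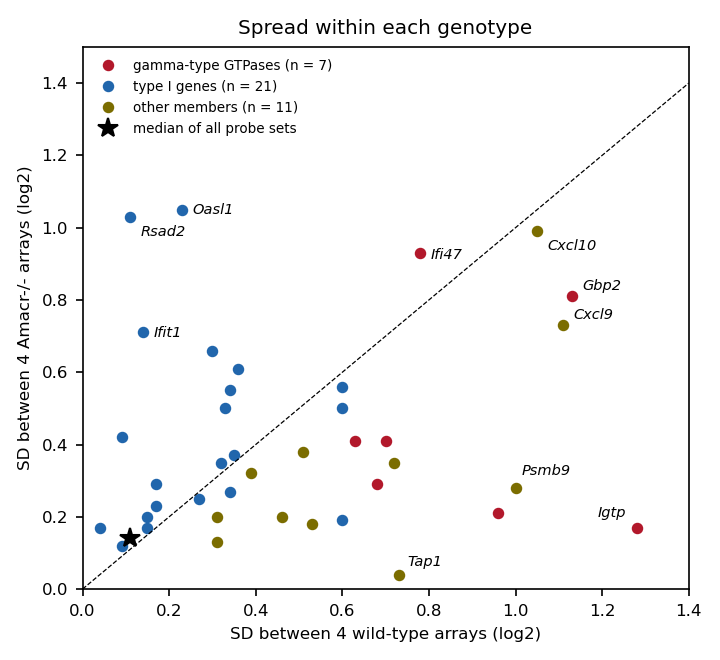
SD between the 4 Amacr-/- arrays against SD between the 4 wild-type arrays, on the log2 scale, for each of the 39 genes, with the median of all probe sets as a star and equal spread as a dashed line. Most gamma-type GTPases and all 11 other genes lie below the line, and 16 of 21 type I genes lie above it. The Amacr-/- SD was the larger in 10997 of all 16492 probe sets.

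The plot of SDs shows on which side of equal spread each gene lies. For the type I genes the wild-type SD was the larger in 23.8%, not far from the 33.3% of all probe sets. The wider wild-type spread of the GTPases and the other genes came with wild-type replicate 4. Over wild-type replicates 1 to 3 their median SDs were 0.05 and 0.14. Rsad2 and Oasl1 lie at the plot's upper left, with Amacr-/- SDs of 1.03 and 1.05, and Igtp at its lower right. Ifi47 and Cxcl10 varied in both genotypes, with SDs of 0.78 and 0.93 for Ifi47 and 1.05 and 0.99 for Cxcl10.

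Lists of cell markers and of MHC class II presentation genes moved to unlike extents on wild-type replicate 4. The median deviation from the wild-type median in wild-type replicate 4 was 1.54 for the gamma-type GTPases, 0.90 for the genes induced by gamma or both and 0.33 for the type I genes. In the same array it was 1.71 for 10 genes of MHC class II presentation, 0.35 for 18 T and NK cell markers, 0.26 for 15 Kupffer cell markers, 0.04 for 11 hepatocyte markers and -0.22 for 10 sinusoidal endothelial markers. For 6 B and plasma cell markers it was 0.26, for 9 neutrophil markers 0.12 and for 6 plasmacytoid dendritic cell markers 0.01. The MHC class II list names a pathway, and whether its shift came from cell number or from RNA per cell was not tested. Wild-type replicate 4 was the highest array in 10 of 10 MHC class II genes, 12 of 18 T and NK cell markers, 10 of 15 Kupffer cell markers and 4 of 6 B and plasma cell markers. It was the highest in 3 of 11 hepatocyte, 2 of 9 neutrophil, 0 of 6 plasmacytoid dendritic cell and 0 of 10 sinusoidal endothelial markers. Over all probe sets this share was 9.03%. Summed over the list on a linear scale, MHC class II ranged from 2350 to 13100 in wild type and from 2770 to 5920 in Amacr-/-. The T and NK cell markers ranged from 844 to 1270 and from 930 to 962, and the B and plasma cell markers from 471 to 1830 and from 296 to 404. The B and plasma cell sums leaned on Jchain, which read 10.53 on the log2 scale in wild-type replicate 4. The median difference of that list between genotypes was -0.10, and -0.02 without that replicate. These normalized values have no true zero, so no marker could be read as absent.

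On the low side, the GTPases deviated by a median of -0.64 in Amacr-/- replicate 3 and -0.65 in replicate 4, and the type I genes by -0.51 and -0.39. The Kupffer cell markers deviated by -0.63 and -0.89 on the same arrays. On both, 11 of 15 were below every wild-type array (73.3%, against 13.2% of all probe sets). Their summed signal was 8330 and 6960 there, against 9380 to 15200 in wild type. The 9380 was that of wild-type replicate 2, where these markers also deviated low, by -0.46. On Amacr-/- replicates 3 and 4 the T and NK cell markers deviated by -0.08 and 0.00, and the hepatocyte markers by -0.06 and -0.06. The summed signal of the 39 genes was 12900 in Amacr-/- replicates 3 and 4, 19400 and 18700 in replicates 1 and 2, 17200 to 18300 in wild-type replicates 1 to 3 and 41500 in wild-type replicate 4. Neutrophil markers summed to between 572 and 717 in wild type and between 539 and 678 in Amacr-/-, and plasmacytoid dendritic cell markers to between 384 and 460 and between 472 and 593. The part of these cells in the levels of the interferon-induced genes was not tested, and in whole tissue a smaller number of cells and less RNA per cell cannot be told apart.

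**Figure D5:**
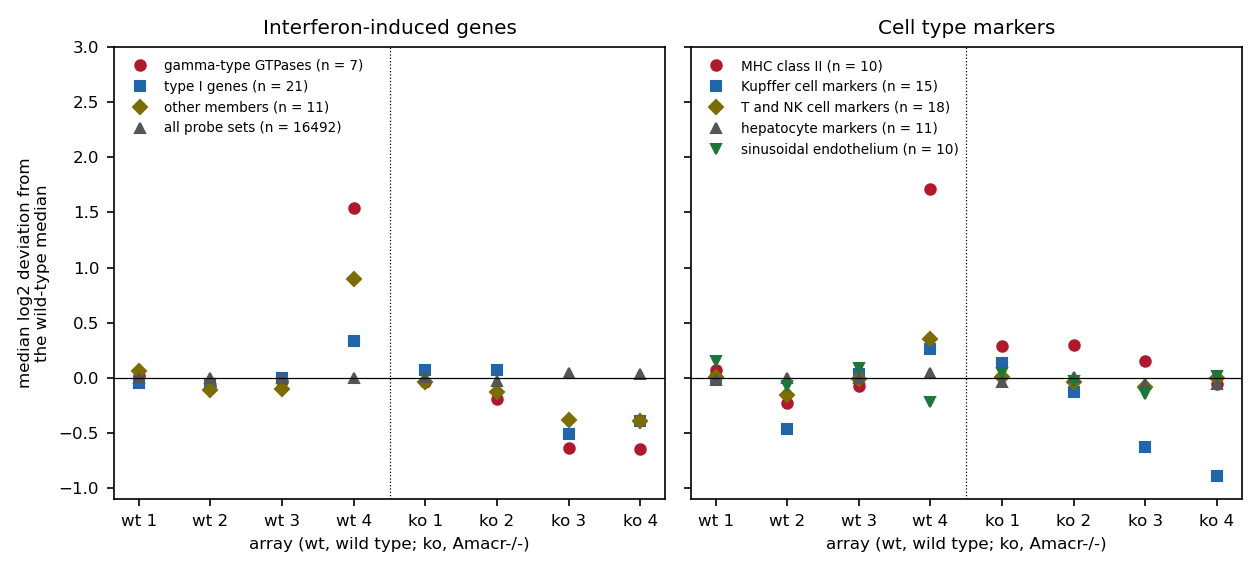
Median deviation in log2 value from the wild-type median, per array, where wt is wild type and ko is Amacr-/-. The left panel holds the 3 classes of interferon-induced genes and all probe sets, and the right panel MHC class II genes and lists of cell markers. On wild-type replicate 4 the gamma-type GTPases (1.54) and MHC class II genes (1.71) are high, and on Amacr-/- replicates 3 and 4 the interferon-induced genes and Kupffer cell markers are low.

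The plot of medians by array shows that MHC class II and Kupffer cell markers parted on Amacr-/- replicates 3 and 4. Both were above the wild-type median on wild-type replicate 4 (1.71 and 0.26). Both were below it on wild-type replicate 2 (-0.23 and -0.46). MHC class II deviated by 0.15 and -0.06 in Amacr-/- replicates 3 and 4, where the Kupffer cell markers were lowest. Replicates 1 and 2 of Amacr-/- deviated by 0.07 and 0.07 for the type I genes.

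The genes upstream of the response did not pass the test. Of 9 measured ligands and inducers and 18 receptor and signalling genes, 0 were called by limma in either direction, against 0.115% of all probe sets. A count of 0 does not separate these lists from the rest of the array. In either list 0 genes had an unadjusted p below 0.05, against 5.63% of all probe sets lower and 5.66% higher. Ifng, the gene of interferon gamma, read 3.87, 3.92, 3.85 and 4.17 in wild type and 3.84, 3.89, 3.94 and 4.02 in Amacr-/-, a difference of -0.03 (SE 0.09, adjusted p = 0.918). Its highest value, 4.17 in wild-type replicate 4, was close to the 4.02 of Amacr-/- replicate 4. All its values lay well below the array medians of 6.63 to 6.67. Ifnb1, the gene of interferon beta, differed by 0.14 (SE 0.11, adjusted p = 0.653 in limma) and also read below the array medians.

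The receptor genes had intervals that reached at most 0.49 on either side of 0. Ifnar1 and Ifnar2, the type I receptor, differed by 0.09 (adjusted p = 0.648 in limma) and -0.03 (adjusted p = 0.876). Ifngr1 and Ifngr2, the gamma receptor, differed by -0.10 (adjusted p = 0.845) and 0.24 (adjusted p = 0.464). Ifnlr1 and Il10rb, the receptor of interferon lambda, differed by 0.02 and 0.00. Of 10 nucleic acid sensing adaptors and 9 MHC class I genes, 0 were called, with 1 of each lower and 1 adaptor higher at an unadjusted p below 0.05. Over all probe sets 0.115% were called, and 5.63% were lower and 5.66% higher at that unadjusted p. Of 38 other interferon-induced genes 0 were called, and 8 were lower (21.1%) and 0 higher at an unadjusted p below 0.05. A lower mean was found in 31 (81.6%, against 43.9% of all probe sets), with a median difference of -0.15 (-0.05 without wild-type replicate 4).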

How the data were processed

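Total liver RNA of 4 wild-type and 4 Amacr-/- mice was hybridised to 8 arrays. The authors deposited log2 values with 2 decimals, 1 per probe set and array. The submitters' processing notes name RMA and give no version. The type of array, software, batch steps and genome build were likewise not stated in the labels or headers used here. Because RMA makes the distributions of the arrays alike, a change shared by all genes would be hidden, and the number of arrays limits the precision (median SE of a difference 0.09).

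Of 16556 probe sets, 64 array controls were left out. The other 16492 were fitted by genotype with limma 3.58.1 (lmFit and eBayes, two-sided, R 4.3.3) and adjusted by Benjamini-Hochberg over all of them, with a threshold of 0.05. The script was tested on simulated data. Genes were named through the platform annotation and RefSeq (15270 named probe sets, all matched by Entrez number), and no member had more than 1 probe set. The table held no detection calls, scan dates or slides, so background and batch were not tested. Deviations are from the median of the 4 wild-type arrays. Summed signals add 2 to the power of each log2 value.

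The members and lists were chosen with earlier results of these data known. Values per array are given for members past the threshold or with groups that do not overlap, for the 2 largest differences of each role group, the smallest in role groups of 5 or more and the 5 largest wild-type SDs (21 members), and for 3 more named as chosen later. The 16 alternatives varied the controls, the eBayes options, array weights, normalization, a mean filter of 6 and a replicate block, and left out arrays.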

Additional observations from a re-analysis of the deposited data

Results flagged for a closer look

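In 12 of the 39 genes the highest wild-type array stood further from the other three than Dixon's 95% critical value for 4 samples allows, and in each of the 12 that array was wild-type replicate 4. The gap to the nearest array, as a share of the wild-type range, was 0.928 for Igtp, 0.964 for Iigp1, 0.954 for Gbp3, 0.937 for Gbp7 and 0.95 for Ifi47 among the gamma-type GTPases. Among the type I genes it was 0.898 for Usp18, 0.84 for Oasl2, 0.913 for Zbp1 and 0.879 for Irf9. It was 0.922 for Cxcl10, 0.919 for Psmb8 and 0.888 for Tap1. Chance marks about 1 in 20 groups when an outlier at either end, high or low, and on any array is counted, so high outliers alone are fewer. Over all probe sets wild-type replicate 4 was marked as high in 1.27%, against 30.8% of these genes. In the same test 0 of the 39 genes were marked for any other array in either direction. The remaining gamma-type GTPases, Irgm1 and Gbp2, were also highest in wild-type replicate 4, at 10.45 and 8.81, but lay under the critical value.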

How the results depend on the processing

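Under the 16 alternatives 0 of the 39 genes passed the limma threshold in either direction, and their lowest adjusted p ran from 0.0972 (Stat2, with array weights) to 0.425. The number of probe sets called over the whole table, 19, was less steady. It was 75 with array weights, 38 after normalizing by quantiles again, 43 with the mean filter, 1 with the replicate block, and 39 without Amacr-/- replicate 2 and wild-type replicate 4 together. The replicate numbers did not pair the arrays: deviations of same-numbered arrays correlated at -0.115 to 0.092, and not every array correlated best with its own number. Leaving out 1 array at a time gave 2 to 39, the highest without Amacr-/- replicate 2 and the lowest without wild-type replicate 1. Array weights gave Amacr-/- replicate 2 the lowest weight, 0.2998. Genes with separated groups numbered 6 to 13 when 1 array was left out, the 13 without Amacr-/- replicate 1, and 4 after normalizing by quantiles again. Leaving out an array could not bring this count below 6, because removing values cannot undo a separation. The median wild-type SD of the 39 genes ran from 0.09, without wild-type replicate 4, to 0.44. Their median difference ran from -0.59, without Amacr-/- replicate 2, to -0.23, without wild-type replicate 4, and the GTPase median from -0.94 to -0.30. At 2 decimals, signs turned in 4 of the 21 genes given by array. Irf8, 0.00 without wild-type replicate 4, turned only beyond those decimals. Without wild-type replicate 4, Ifi47 was 0.06, Irf1 0.06 and Cxcl10 0.30, and Irf1 was 0.06 also without that array and Amacr-/- replicate 2 together. Cxcl10 was 0.01 without Amacr-/- replicate 3 and 0.06 without replicate 4. Oas2 was -0.03 without wild-type replicate 1, -0.04 without Amacr-/- replicate 3 and -0.01 without replicate 4. Without Amacr-/- replicate 2 the differences of Ifi47 and Cxcl10 were at their lowest, -0.63 and -0.65, and without wild-type replicate 2 that of Irf1 was, -0.36. The cause was not tested beyond the arrays left out.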

Other observations

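Among 38 further interferon-induced genes, 5 had every Amacr-/- array below every wild-type array (13.2%, against 3.25% of all probe sets) and are named here after their values were seen. Ifitm2, of the family that blocks virus entry at membranes, read 12.04, 12.11, 12.09 and 12.13 in wild type and 11.60, 11.75, 11.44 and 11.66 in Amacr-/-, a difference of -0.48 (SE 0.08, adjusted p = 0.0603 in limma). Its wild-type arrays were close together, and wild-type replicate 4 did not stand apart. Parp9, which acts in ADP-ribosylation, differed by -0.34 (SE 0.07, adjusted p = 0.131), Ifi27 by -0.54 (SE 0.16, adjusted p = 0.262), Ifitm3 by -0.31 (SE 0.11, adjusted p = 0.345) and Ifi204 by -0.82 (SE 0.31, adjusted p = 0.367). The separation was narrow for Ifitm3, with a highest Amacr-/- value of 12.91 and a lowest wild-type value of 12.93. It was also narrow for Ifi204, at 4.81 and 4.83, and Ifi204 read only 3.42 to 5.72 over the arrays. None of the 5 passed the threshold.

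Ubd, a ubiquitin-like modifier induced by interferon gamma, read 6.11, 5.84, 5.35 and 8.76 in wild type and 6.60, 8.92, 5.41 and 5.40 in Amacr-/-. It was high on 1 array of each genotype, wild-type replicate 4 and Amacr-/- replicate 2. The same arrays were the highest of their genotype for Cxcl10, at 9.17 and 8.65. Jchain, the joining chain of antibodies from plasma cells, read 8.10, 7.85, 7.45 and 10.53 in wild type and 6.24, 6.79, 5.85 and 5.23 in Amacr-/-, without overlap (difference -2.46, SE 0.63, adjusted p = 0.183 in limma).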
